A study of Mus musculus with 4 samples.

Results

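The genes described here are 10 genes of the liver X receptors (LXRs) and of cholesterol efflux: the receptor genes Nr1h3 and Nr1h2, the export and transfer genes Abca1, Abcg1, Apoe, Pltp and Arl4c, and the lipid control genes Srebf1, Lpcat3 and Mylip. They were found as probe sets to which the array's annotation gives 1 gene symbol, and 12 of the 45101 probe sets met that rule. These stand for 8 genes of the 18193 with such a probe set, 3 probe sets for Abca1, 2 each for Abcg1 and Pltp and 1 for each of the others. No single-gene probe set was found for Nr1h2 or Arl4c, so their expression was not analysed here. Of the 12 probe sets, 11 had a mean signal over the 4 arrays above the median of all probe sets (24.7) and were tested, so each of the 8 genes had at least 1 tested probe set.

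The tested cultures were naive mouse CD4+ T cells given hTGFb1 at 1 ng/ml and the steroid hormone progesterone at 2000 ng/ml (2 arrays). The cultures they were set against received hTGFb1 at 1 ng/ml without progesterone (2 arrays). The cells of all cultures came from the spleen and from peripheral and mesenteric lymph nodes. Every culture also held the T cell mitogen concanavalin A (2.5 ug/ml) and ran for 7 days, so each array shows activated, TGFb1-treated cells. No culture without TGFb1 or with progesterone alone is among the 4 samples. The comparison sets T cells given progesterone and TGFb1 against T cells given TGFb1 alone. The groups also differ in transcripts of the X and Y chromosomes, described below, so treatment and a difference in sex cannot be told apart.

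LXRs are nuclear receptors that sense cellular cholesterol through its oxidised derivatives, the oxysterols. Bound to DNA as a pair with a retinoid X receptor (RXR), they switch on genes that move cholesterol out of the cell, limit its uptake and remodel membrane lipids. In T lymphocytes, LXR signalling is known to restrain proliferation by holding down the sterol supply of dividing cells. A typical LXR binding element is a direct repeat of a 6-base half-site with 4 bases between the copies, called DR4.

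The promoters of 2 members, Abca1 and Srebf1, hold a run of letters that matches a loose pattern of such an element. The stretches around it are shown because a probe set rose for Abca1 and none did for Srebf1. The capitals mark the match to the pattern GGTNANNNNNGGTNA, which was chosen after these promoters had been read, on either strand. The Abca1 stretch is chr4:53159908-53160002 and the Srebf1 stretch is chr11:60210599-60210693, both on the minus strand of GRCm38.p6, from RefSeq, read in the direction of the gene.
Abca1: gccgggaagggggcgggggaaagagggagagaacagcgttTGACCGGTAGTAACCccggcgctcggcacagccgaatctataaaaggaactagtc
Srebf1: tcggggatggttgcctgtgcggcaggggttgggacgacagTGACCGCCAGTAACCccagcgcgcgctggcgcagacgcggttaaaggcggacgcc

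In Abca1 the match runs from base -67 to base -53 relative to the annotated start. In Srebf1 it runs from base -182 to base -168 of the third of 3 annotated starts, and the other 2 Srebf1 windows had no match. The 14 windows of member genes run from 250 bases before a start to 50 after it and cover 9 of the 10 genes, all but Abcg1. Over all 32851 windows of that length, 0.718% held the pattern. The pattern was chosen with the member promoters known, so this share does not test whether members hold it more often. The letters of a progesterone response element, GNACANNNTGTNC, occurred in none of the 14 member windows and in 0.475% of all windows. A match is a run of letters and not a measured site, and a window without one says nothing about sites elsewhere.

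Signals were quantile normalised and taken as log2(signal + 16), since the arrays differed in their signal distributions. The trimmed mean signal ran from 108 to 138 in the progesterone arrays and from 145 to 155 in the TGFb1 arrays. The median signal went the other way, at 29.9 and 24.4 in the progesterone arrays, against 23.6 and 23.5 in the TGFb1 arrays. Over the 22518 tested probe sets, arrays correlated at r = 0.983 within the progesterone group, at r = 0.980 within the TGFb1 group and at r = 0.943 to 0.961 between groups, across probe sets, which are not independent replicates. By limma with Benjamini-Hochberg adjustment at a threshold of 0.05, 541 probe sets rose and 835 fell, and with the signals as deposited 290 rose and 1314 fell around a median of -0.16. Differences below are progesterone minus TGFb1 on the log2(signal + 16) scale, which understates changes of dim probe sets, with the standard error (SE) of the fit and n = 2 arrays per group. Whether the replicates are separate cultures or animals is not labelled, and the p-values therefore reflect the spread of these arrays alone, which may be technical. In a bulk sample, fewer cells of a type and less RNA per cell cannot be told apart.

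Of the 11 tested member probe sets, 2 rose, 1 fell and 8 did not pass. The probe sets that rose were those of Apoe and the brightest of Abca1, both genes of cholesterol export, and the probe set that fell was 1 of 2 for the lipid transfer gene Pltp. Over all tested probe sets 2.40% rose and 3.71% fell, and 6.11% did either. The median difference was 0.04 over the member probe sets and 0.03 over all tested probe sets. The filter used the mean over all arrays, so the Apoe probe set passed it through its signal with progesterone and the dimmer Pltp probe set through its signal with TGFb1 alone.

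Apoe encodes apolipoprotein E, a secreted carrier that accepts cholesterol from cells. Its probe set, 1432466_a_at, had deposited signals of 94.6 and 64.5 in the progesterone arrays, against 19.3 and 18.1 in the TGFb1 arrays. Both progesterone arrays lay above both TGFb1 arrays, and the lower of them was over 3 times the higher TGFb1 signal. The rise was 1.42 ± 0.22 (SE), a 2.68-fold change with a 95% interval from 1.89 to 3.80, and limma's adjusted p was 0.00967. The adjusted p was 0.0740 without progesterone replicate 1, 0.0616 without progesterone replicate 2 and 0.0592 with no level filter. With a pseudocount of 1 the rise was 1.95, and with 64 it was 0.79.

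Abca1 encodes the membrane transporter that hands cholesterol and phospholipid to lipid-poor apolipoproteins. Its brightest probe set, 1421840_at, had deposited signals of 196 and 144 in the progesterone arrays, against 70.2 and 110 in the TGFb1 arrays. The groups did not overlap, and on the log2 scale the TGFb1 arrays differed from each other by more than the progesterone arrays did. It rose by 0.99 ± 0.21, a 1.99-fold change with a 95% interval from 1.42 to 2.78 and a limma adjusted p of 0.0334. The call was lost without progesterone replicate 1 (adjusted p = 0.171), without progesterone replicate 2 (0.175), without TGFb1 replicate 1 (0.0629), with no level filter (0.112) and with eBayes without trend (0.0958).

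The other Abca1 probe sets were dimmer. Probe set 1421839_at had deposited signals of 53.4 and 22.1 in the progesterone arrays, against 18.7 and 23.8 in the TGFb1 arrays, so the groups overlapped, and its difference of 0.35 ± 0.31 did not pass (limma adjusted p = 0.555). Probe set 1450392_at, which lay under the level filter, had deposited signals of 41.8 and 15.8 with progesterone, against 6.43 and 12.8 with TGFb1 alone. Its difference was 0.63, and the fit without a filter gave limma's adjusted p as 0.484. All 3 Abca1 probe sets thus had a higher mean with progesterone, and for the 2 dimmer ones progesterone replicate 1 lay well above progesterone replicate 2. When the tested probe sets of a gene were averaged, Abca1 stood at 0.67 ± 0.21 (limma adjusted p = 0.108).

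Abcg1 encodes the companion transporter that delivers cholesterol to mature high-density lipoprotein particles. Its brighter probe set, 1423570_at, had deposited signals of 445 and 372 in the progesterone arrays, against 497 and 417 in the TGFb1 arrays. Its difference was 0.17 ± 0.13 after quantile normalisation (limma adjusted p = 0.489) and -0.16 with the signals as deposited, so its direction turned with the scaling. The second probe set, 1455221_at, had 106 and 89.7 with progesterone, against 112 and 158 with TGFb1 alone, and a difference of -0.25 ± 0.20 (limma adjusted p = 0.506). The 2 Abcg1 probe sets had opposite signs, and neither passed. The 95% interval of the fold change ran from 0.918 to 1.37 for the brighter and from 0.615 to 1.15 for the other.

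Pltp encodes phospholipid transfer protein, which moves phospholipid between lipoprotein particles. Its probe set 1417963_at had deposited signals of 14.2 and 10.4 in the progesterone arrays, against 69.4 and 48.0 in the TGFb1 arrays. Both progesterone signals lay below both TGFb1 signals. It fell by 1.43 ± 0.26 on the log2 scale (limma adjusted p = 0.0180), and the ratio of progesterone to TGFb1 was 0.370, with a 95% interval from 0.245 to 0.559. Limma's adjusted p was 0.0670 without progesterone replicate 1, 0.0957 without progesterone replicate 2 and 0.0829 with no level filter. The difference was -2.26 with a pseudocount of 1 and -0.69 with 64.

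The second Pltp probe set, 1456424_s_at, whose suffix marks probes shared by more than one transcript, had 66.9 and 82.1 with progesterone, against 167 and 158 with TGFb1 alone. The groups again did not overlap, and the direction was the same. Its difference of -0.84 ± 0.21 did not pass (limma adjusted p = 0.0610), but it passed with the signals as deposited (-0.98, adjusted p = 0.00344). The mean of both Pltp probe sets gave -1.14 ± 0.19 with a limma adjusted p of 0.00933. Within the export and transfer group, Apoe and 1 Abca1 probe set therefore rose while a Pltp probe set fell.

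**Figure D1:**
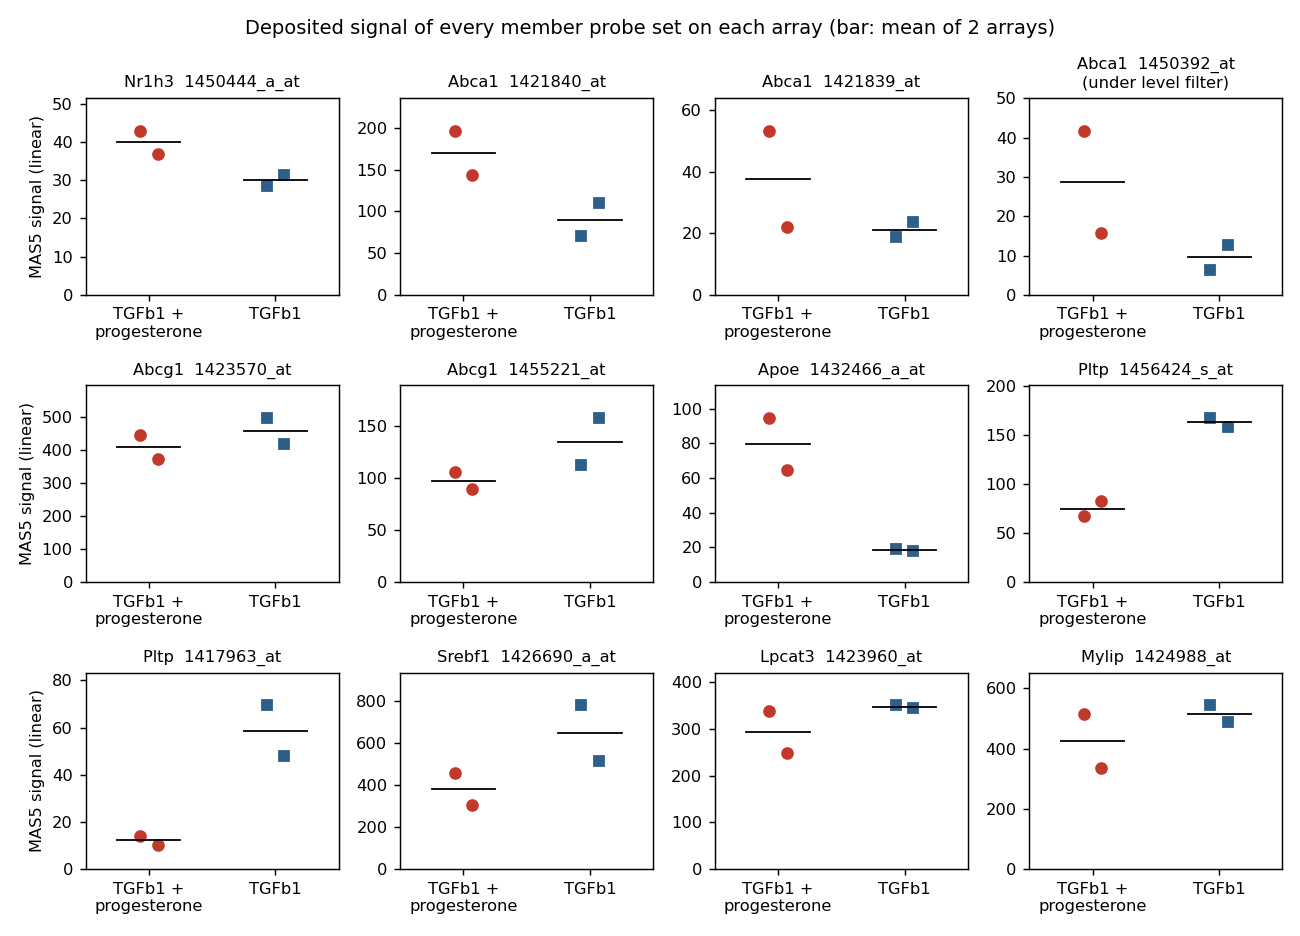
Deposited MAS5 signal (linear, each panel from 0) of the 12 member probe sets, with a point for each array and a bar at the mean of the 2 arrays of a group. Apoe had 94.6 and 64.5 with progesterone against 19.3 and 18.1 with TGFb1 alone, Pltp 1417963_at had 14.2 and 10.4 against 69.4 and 48.0, and the groups of Mylip and of Abca1 1421839_at overlapped.

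Nr1h3 encodes LXR alpha, the receptor form found mainly in macrophages, liver and fat. Its single probe set, 1450444_a_at, was dim, at a deposited signal of 43.0 and 37.0 in the progesterone arrays, against 28.6 and 31.5 in the TGFb1 arrays. The progesterone arrays were the higher, but the difference of 0.21 ± 0.23 did not pass (limma adjusted p = 0.647). The 95% interval of the fold change ran from 0.800 to 1.66.

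Srebf1 encodes the SREBP-1 transcription factors, which drive fatty acid synthesis and of which SREBP-1c is an LXR target. Probe set 1426690_a_at had deposited signals of 457 and 308 with progesterone, against 780 and 517 with TGFb1 alone. The groups did not overlap, but each was widely spread, and the difference of -0.40 ± 0.17 did not pass (limma adjusted p = 0.234). It passed without TGFb1 replicate 2 (-0.63, adjusted p = 0.0373), whereas without TGFb1 replicate 1 it was -0.16 (adjusted p = 0.629).

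Lpcat3 encodes an acyltransferase that puts polyunsaturated chains into membrane phospholipids. It had deposited signals of 338 and 248 in the progesterone arrays, against 350 and 344 in the TGFb1 arrays, and a difference of 0.04 ± 0.13 after quantile normalisation (limma adjusted p = 0.894). Mylip encodes the ubiquitin ligase IDOL, which marks the low-density lipoprotein receptor for breakdown. Its signals were 513 and 335 with progesterone, against 543 and 488 with TGFb1 alone, and its difference was 0.03 ± 0.13 (limma adjusted p = 0.935). With the signals as deposited both differences were negative, -0.25 for Lpcat3 and -0.30 for Mylip, and did not pass. The 95% interval of the fold change ran from 0.837 to 1.26 for Lpcat3 and from 0.824 to 1.26 for Mylip, so a 2-fold change in either direction lay outside both.

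A description that needs no variance model asks whether the groups overlap after quantile normalisation and whether the mean fold is at least 1.5. The progesterone arrays both lay above the TGFb1 arrays for 4 of the 11 tested member probe sets and below them for 3, and over all tested probe sets these shares were 29.3% and 24.0%. With the fold added, 2 member probe sets were higher, Apoe and Abca1 1421840_at, and 2 were lower, both of Pltp. Over all tested probe sets 4.83% were higher by that description and 6.30% were lower.

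**Figure D2:**
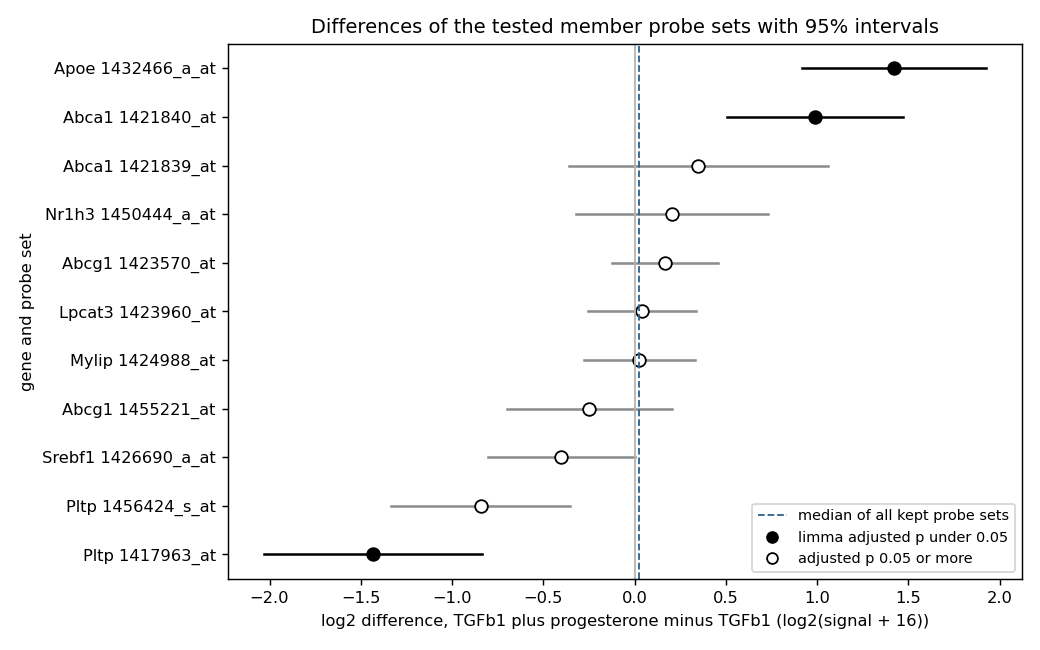
Log2 difference (x axis, progesterone minus TGFb1, log2(signal + 16)) of the 11 tested member probe sets (y axis) with the 95% interval of the limma fit, filled where the adjusted p was under 0.05. Apoe (1.42) and Abca1 1421840_at (0.99) lie to the right, both Pltp probe sets (-0.84 and -1.43) to the left, and the intervals of the other 7 reach or cross 0, shown as a solid line beside the dashed median of all tested probe sets.

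Among other genes of the pathway, 62 were listed, 56 had a probe set, and 34 passed the level filter with their brightest one. Of these, 1 rose and 6 fell, with a median of 0.03, beside 2.40% up and 3.71% down over all tested probe sets. The lists were chosen with earlier results of these data known, and several of their genes are also enzymes of fatty acid synthesis. By their brightest probe sets, RXR genes and coregulators had no call by limma among 10 tested, with differences from -0.12 to 0.37. Of these 10, 2 had an unadjusted limma p under 0.05, as did 4819 of all 22518 tested probe sets. The other tested probe sets of these 10 genes had no call either. They ran from -0.51 (Tbl1x 1434643_at, limma adjusted p = 0.0735) to 0.35 (Ncoa2 1446827_at). The RXR beta gene Rxrb, which encodes an LXR partner, had deposited signals of 755 and 502 with progesterone, against 836 and 661 with TGFb1 alone, and a difference of 0.09 ± 0.13.

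The lipid targets of LXR and SREBP-1 had 5 of 9 tested genes down and 1 up, beside 3.71% down and 2.40% up over all tested probe sets. The stearoyl-CoA desaturase gene Scd1, a target of both factors, had deposited signals of 210 and 110 with progesterone, against 612 and 363 with TGFb1 alone, and fell by 1.28 ± 0.25 (limma adjusted p = 0.0260). Its paralogue Scd2 fell by 1.14 ± 0.10, the desaturase genes Fads2 and Fads1 by 2.01 ± 0.25 and 0.78 ± 0.15, and the elongase gene Elovl5 by 0.57 ± 0.09. The other tested Fads1 probe set was at 0.02. The fatty acid synthase gene Fasn (-0.38 ± 0.13, limma adjusted p = 0.138) and the acetyl-CoA carboxylase gene Acaca (-0.35 ± 0.18, adjusted p = 0.305) did not pass. Smpdl3a, which encodes a phosphodiesterase and is known as an LXR target from human cells, had deposited signals of 2478 and 1767 with progesterone, against 2746 and 3050 with TGFb1 alone, and a difference of -0.03 ± 0.11 (limma adjusted p = 0.901).

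The lipid target that rose was Lpl, which encodes lipoprotein lipase, a macrophage target of LXR. It had deposited signals of 82.2 and 83.7 in the progesterone arrays, against 21.1 and 1.12 in the TGFb1 arrays, and rose by 1.99 ± 0.38 (limma adjusted p = 0.0226). Both TGFb1 signals lay under the filter level of 24.7 and differed widely, so Lpl entered the test through its signal with progesterone. Its call was lost without progesterone replicate 1 (adjusted p = 0.0819), without progesterone replicate 2 (0.175), with no level filter (0.103), with a pseudocount of 1 (0.0838) and with eBayes without trend (0.0825). The Scd1 call was lost without progesterone replicate 2 (limma adjusted p = 0.194), with no level filter (0.0981) and with eBayes without trend (0.108). Fads1 was lost without progesterone replicate 1 (0.160) or 2 (0.0873), with no level filter (0.0595) and without trend (0.0795), and Elovl5 without progesterone replicate 1 (0.0939) or 2 (0.140) and without trend (0.118). The brightest probe sets of Scd2 and Fads2 passed in every setting in which they were tested. Among dimmer Scd2 probe sets, 1415823_at fell by 1.41 ± 0.16 (limma adjusted p = 0.00308) and 1415824_at stood at -1.22 ± 0.31 (0.0630). Fads2 had deposited signals of 18.2 and 13.8 with progesterone, against 142 and 88.7 with TGFb1 alone. Fads2 thus entered the test through its signal with TGFb1 alone.

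Of 10 tested genes of sterol export and transport, 1 fell and none rose, beside 3.71% down and 2.40% up over all tested probe sets. Npc2, the lysosomal cholesterol carrier gene, had deposited signals of 5494 and 3982 with progesterone, against 8021 and 7113 with TGFb1 alone, and fell by 0.35 ± 0.06 (limma adjusted p = 0.0187), a call lost without progesterone replicate 1 (0.0949) or progesterone replicate 2 (0.281), with no level filter (0.114) and with eBayes without trend (0.227). Of the other 2 Npc2 probe sets, 1455768_at fell by 0.85 ± 0.12 (limma adjusted p = 0.00714) and 1448513_a_at stood at -0.24 ± 0.09 (0.157). Its lysosomal partner Npc1 stood at 0.20 ± 0.16 (limma adjusted p = 0.522). Abca7, a transporter related to Abca1, had 296 and 299 with progesterone, against 558 and 608 with TGFb1 alone, and its difference of -0.61 ± 0.16 did not pass (limma adjusted p = 0.0658). Of 10 oxysterol and steroid enzyme genes 3 were tested and none passed by limma. Of the 3, 1 had an unadjusted limma p under 0.05, beside 4819 of all 22518 tested probe sets. Ch25h, which makes 25-hydroxycholesterol, lay under the level filter with signals of 22.8 and 25.4 with progesterone, against 12.2 and 30.5 with TGFb1 alone. Of the LDL receptor family, which the Mylip product acts on, Vldlr (0.17 ± 0.23) and Lrp8 (0.02 ± 0.20) did not pass.

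**Figure D3:**
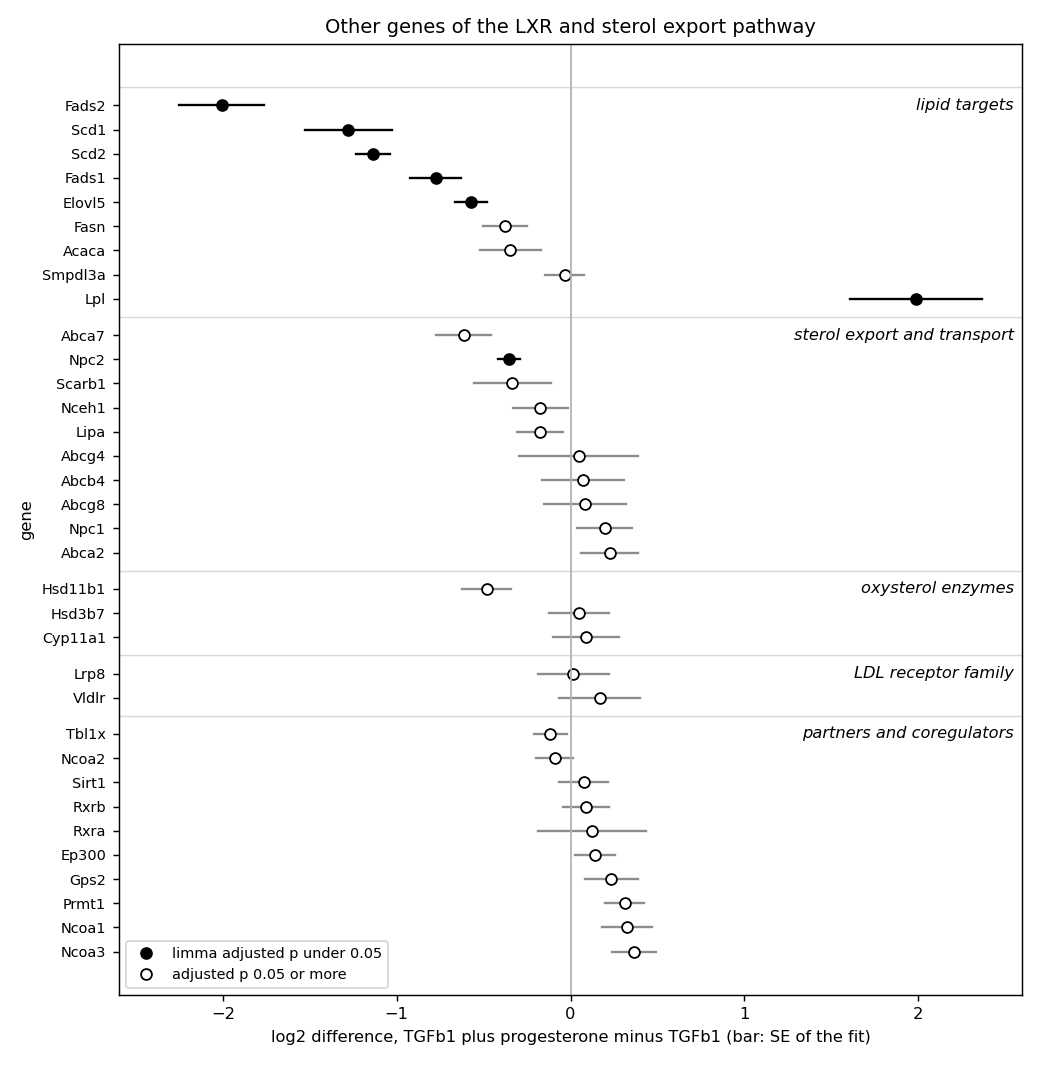
Log2 difference (x axis, progesterone minus TGFb1) with the SE of the limma fit for 34 other genes of the pathway (y axis) in 5 groups, filled where the adjusted p was under 0.05. Fads2, Scd1, Scd2, Fads1 and Elovl5 lie between -2.01 and -0.57, Npc2 at -0.35 and Lpl at 1.99, and the 10 RXR and coregulator genes between -0.12 and 0.37. Each gene is shown by its brightest probe set alone.

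Apoe, Abca1, Lpl and Nr1h3 are also expressed by macrophages, so markers of other cells were read on the same arrays. The sum of the quantile-normalised signals of 17 macrophage marker genes was 1161 and 1357 in the progesterone arrays, against 618 and 408 in the TGFb1 arrays. The lysozyme gene Lyz2 alone supplied 685 and 771 of these with progesterone, against 173 and 54.1 with TGFb1 alone, and the other 16 genes summed to 476 and 586, against 445 and 354. Of the 9 tested, 1 rose, Lyz2, beside 2.40% of all tested probe sets. Lyz2 had deposited signals of 676 and 588 with progesterone, against 189 and 53.5 with TGFb1 alone (2.69 ± 0.39, limma adjusted p = 0.00769). That call was lost without progesterone replicate 2 (0.0744), with eBayes without trend (0.0644) and with robust eBayes (0.0615), and the rise was 3.34 without TGFb1 replicate 1 and 1.96 without TGFb1 replicate 2. Cd68 (0.66 ± 0.21, limma adjusted p = 0.114), the F4/80 gene Adgre1 (0.57 ± 0.27) and the integrin gene Itgam (-0.81 ± 0.39, adjusted p = 0.279) did not pass. Nor did any of 3 Csf1r probe sets, which lay between 0.17 and 0.94 (limma adjusted p = 0.784 for the brightest and 0.0917 for the one at 0.94). None of the 17 was at 0, and the lowest by mean deposited signal was the complement gene C1qa, at 1.20 and 1.59 with progesterone and 0.775 and 0.749 with TGFb1 alone.

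Of 6 tested dendritic cell and antigen presentation markers, 3 rose: H2-Aa (2.44 ± 0.19), Cd74 (2.00 ± 0.16) and H2-Eb1 (1.49 ± 0.20, with an adjusted p of 0.0551 by limma without progesterone replicate 1). Over all tested probe sets 2.40% rose. H2-Ab1, whose product pairs with that of H2-Aa, did not pass, at 0.17 ± 0.13 for the brightest of 3 probe sets (limma adjusted p = 0.498) and -0.14 to 0.17 over them, nor did the dendritic cell gene Zbtb46 (0.04 ± 0.30). The quantile-normalised signals of the 9 genes of that list summed to 1440 and 1272 with progesterone, against 572 and 631 with TGFb1 alone. The 3 genes that rose supplied 933 and 817, against 191 and 179, and the other 6 summed to 507 and 455, against 381 and 452. The lowest by mean deposited signal was Flt3, at 6.09 and 3.11 against 5.98 and 23.3.

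The cells were labelled as CD4+ T cells. Cd3e had deposited signals of 3053 and 2214 with progesterone, against 3398 and 3201 with TGFb1 alone, and Cd4 had 1620 and 1220, against 2356 and 2475. After quantile normalisation the direction of Cd3e turned, to 0.11 ± 0.08 (limma adjusted p = 0.447), while Cd4 stood at -0.34 ± 0.10 (0.0964). Over all 22518 tested probe sets, 4819 had an unadjusted limma p under 0.05. Of 10 T cell markers none passed by limma, with 5 at such an unadjusted p. Their quantile-normalised signals summed to 33206 and 33191 with progesterone, against 33195 and 34513 with TGFb1 alone, and their deposited signals to 32178 and 25274, against 39694 and 36915. By their brightest probe sets, B cell, CD8, and mast cell and basophil markers had no call by limma among 2, 2 and 5 tested genes, with 0, 0 and 3 at an unadjusted p under 0.05. A second, dimmer probe set of the mast cell and basophil gene Ms4a2, 1421475_at, rose by 1.05 ± 0.23 (limma adjusted p = 0.0409), against 0.96 ± 0.23 (0.0530) for the brightest. The deposited signals of 1421475_at were 59.5 and 46.3 with progesterone, against 14.3 and 17.2 with TGFb1 alone. It thus passed the level filter through its signal with progesterone. The rise of 1421475_at did not pass when any 1 array was left out (0.0646 to 0.205), with no level filter (0.147) or with a pseudocount of 1 (0.0522). Of the 2 NK cell markers tested, Klrd1 fell by 0.67 ± 0.13 (limma adjusted p = 0.0230), a call lost without progesterone replicate 1 (0.132), progesterone replicate 2 (0.219) or TGFb1 replicate 1 (0.0529), with no level filter (0.0554) and with eBayes without trend (0.0825). The other, Eomes, stood at -0.76 ± 0.24 by its brightest probe set (limma adjusted p = 0.122), while its second, 1426001_at, fell by 1.11 ± 0.15 (0.00647, and 0.0530 and 0.0540 without progesterone replicate 1 and 2). Another NK cell marker, Ncr1, went the other way but lay under the level filter, at a mean deposited signal of 12.8. Both progesterone arrays were above both TGFb1 arrays for Ncr1. Its difference was 0.44, and limma's adjusted p was 0.566 in the fit with no level filter. The part of other cells in the member differences was not tested.

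**Figure D4:**
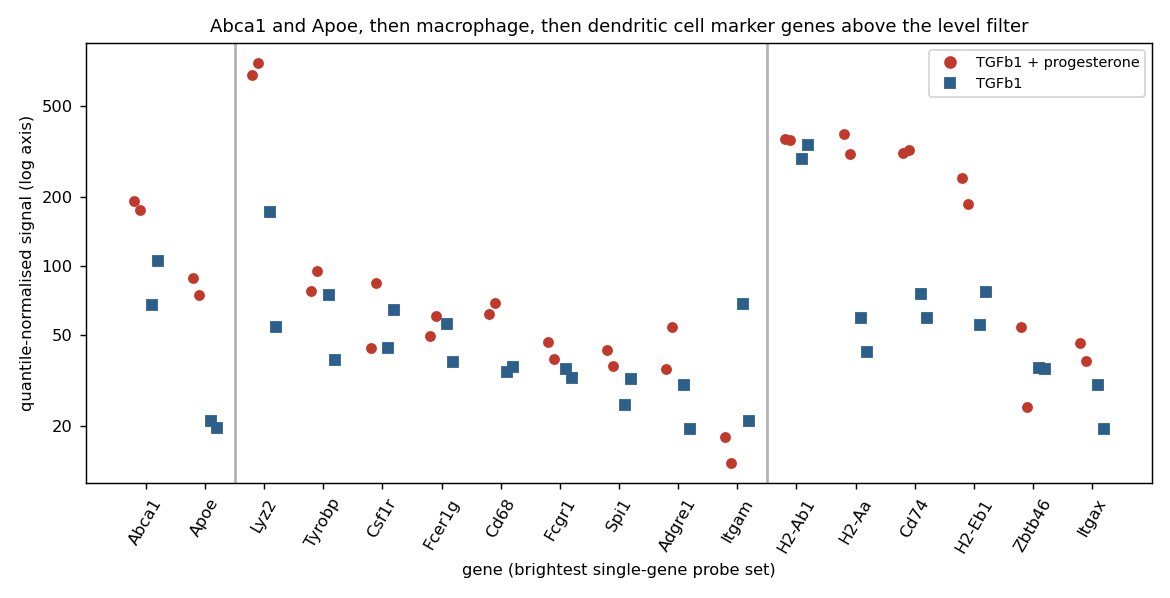
Quantile-normalised signal (log axis) of Abca1, Apoe and the macrophage and dendritic cell markers above the level filter (x axis), with a point for each array. Of the macrophage markers, Lyz2, Tyrobp, Cd68, Fcgr1, Spi1 and Adgre1 were higher on both progesterone arrays than on both TGFb1 arrays. Itgam was lower. Of the dendritic cell markers, H2-Ab1, H2-Aa, Cd74, H2-Eb1 and Itgax were higher in that way, as were 29.3% of all tested probe sets. Of these markers, Lyz2, H2-Aa, Cd74 and H2-Eb1 passed by limma. The deposited signals of Itgam and of H2-Ab1 overlapped between the groups.

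Transcripts of the X and Y chromosomes separated the groups too. Xist, the RNA of the inactive X chromosome, had deposited signals of 1390 and 825 in the progesterone arrays, against 9.52 and 9.70 in the TGFb1 arrays, and the Y-linked Eif2s3y had 4.25 and 0.492, against 689 and 727. The labels do not give the sex of the animals, and a difference in sex between the groups and the treatment cannot be told apart in this design, for the members on autosomes too. The 8 measured members lie on chromosomes 2, 4, 6, 7, 11, 13 and 17.

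**Figure D5:**
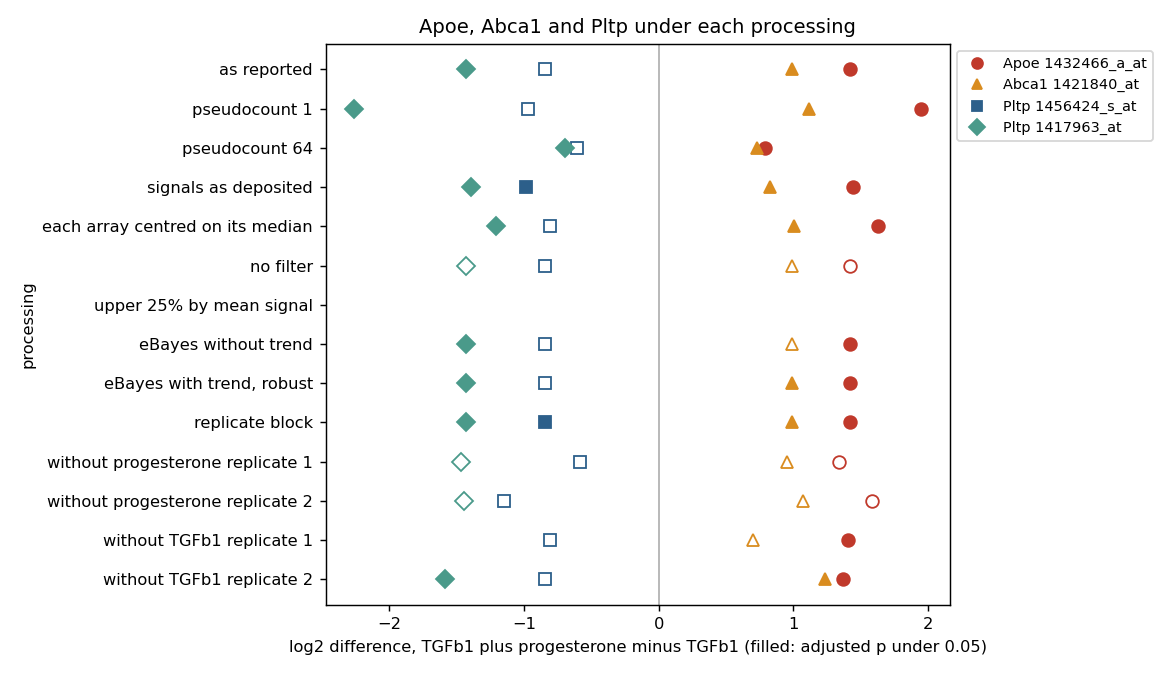
Log2 difference (x axis, progesterone minus TGFb1) of the Apoe, Abca1 and Pltp probe sets under each processing (y axis), filled where the limma adjusted p was under 0.05. Apoe and Abca1 stay above 0 and both Pltp probe sets below 0 in every setting in which they were tested, while the call of Apoe was lost in 3 of 12 settings and that of Abca1 in 5 of 12.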

How the data were processed

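RNA from 4 cultures was measured on arrays of 45101 probe sets. Each deposited value is the signal intensity of a probe set, on a linear scale; per the submitters' processing notes it was made with MAS5, without a version, and how arrays were scaled is not stated there. There are no detection calls, and with 2 residual degrees of freedom the number of arrays limits the precision. Group and replicate were taken from the sample titles, which name only progesterone for the treated cultures; that these also received TGFb1 comes from the agent label.

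The 64 control probe sets were left out, signals were quantile normalised and taken as log2(signal + 16), and 22518 probe sets with a mean signal above the median entered a fit without covariates in limma 3.58.1 under R 4.3.3 (lmFit, eBayes with an intensity trend). P-values were adjusted by Benjamini-Hochberg over all of these. Every p given comes from limma, by this fit unless an alternative setting is named beside it. With 2 arrays against 2, no permutation test could pass.

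Symbols came from the platform annotation, updated by Entrez identifier from RefSeq (34741 of 34945 single-gene probe sets matched); 932 probe sets had several genes and 9160 none. No gene is named from a probe set with several. All member probe sets are reported. Other pathway and marker genes are represented by their single-gene probe set of highest mean signal, and were named if they passed or to give a group's range or role. Second probe sets of Npc2, Scd2, Fads1, Tbl1x, Ncoa2, Csf1r, H2-Ab1, Ms4a2 and Eomes are given after their values were seen. The members and lists were chosen with earlier results of these data known. Alternatives were other pseudocounts (1 and 64), scalings, filters and variance models, averaged probe sets, a replicate block, and leaving out each array, where the lone array of a group is assumed to vary like the other group.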

Additional observations from a re-analysis of the deposited data

How the results depend on the processing

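Of the differences of member probe sets, those of Apoe, Abca1, Nr1h3, Srebf1, Pltp and Abcg1 1455221_at kept their sign in all settings in which they were tested. In the upper 25% by mean signal, Apoe, Abca1, Nr1h3, Pltp and Abcg1 1455221_at were not tested. Abca1 1421839_at was not tested without progesterone replicate 1 either, nor Pltp 1417963_at without TGFb1 replicate 1, and Abca1 1450392_at was tested with no filter alone. Reversals were confined to 3 probe sets that did not pass in any setting: Abcg1 1423570_at was at -0.16 with the signals as deposited. Lpcat3 was at -0.25 as deposited, at -0.0639 with arrays centred on their medians and between -0.0112 and 0.0942 when an array was left out, below 0 without progesterone replicate 1. Mylip was at -0.30, -0.12 and between -0.10 and 0.16 in those settings, below 0 without progesterone replicate 1 and without TGFb1 replicate 2 (-0.0041). The cause was not tested.

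The count of changed probe sets (1376) was 534 with no filter, 477 with eBayes without trend and 330 to 1613 when an array was left out, lowest without progesterone replicate 2 and 561 without progesterone replicate 1. The count of member probe sets that changed (3) was 0 with no filter, where 4 had an unadjusted limma p under 0.05, and 0 in the upper 25% by mean signal, where no called member probe set remained to be tested and 0 had such a p. It was 0 to 4 when an array was left out, with 0 without either progesterone array (4 unadjusted in each) and 1 without TGFb1 replicate 1. The count of other pathway genes that changed (7) was 3 with no filter, 2 with eBayes without trend and 2 to 8 when an array was left out. Non-overlapping probe sets with a fold of 1.5 or more (2507) numbered 4233 with no filter and 1209 with a pseudocount of 64, alternatives chosen after seeing the data.

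The groups share replicate numbers 1 and 2. Over the tested probe sets, deviations of same-numbered arrays from their group means correlated at r = 0.17, and with only 2 pairs this does not establish a pairing. With the replicate number as a block, 3149 probe sets, 5 member probe sets and 11 other pathway genes changed, and Pltp 1456424_s_at (adjusted p = 0.00859) and Srebf1 (0.0330) passed as well.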

Other observations

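Under the level filter lay 9 genes of sterol export and transport, with deposited signals from 0.736 to 32.0, and they did not enter the main fit. After quantile normalisation both progesterone arrays were above both TGFb1 arrays for 1 of them, Apod, and below for 2, Apoc4 and Cav1, and the groups of the other 6 overlapped. Over the tested probe sets, 29.3% were above and 24.0% below in that way, and no share was taken for probe sets under the filter. Apod, which encodes the lipocalin apolipoprotein D, had deposited signals of 17.6 and 32.0 in the progesterone arrays, against 3.47 and 2.11 in the TGFb1 arrays. Cav1, the caveolin 1 gene, had 7.48 and 2.51 with progesterone, against 11.9 and 18.9 with TGFb1 alone. In the fit with no level filter, limma's adjusted p was 0.216 for Apod, 0.427 for Apoc4 and 0.283 for Cav1.

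Likeness to a member was measured as the Euclidean distance between log2 values over the 4 arrays, each centred on its own mean. The nearest single-gene probe sets to Abca1 1421840_at belonged to Il17rb (distance 0.106), Camk2n1 (0.112) and Psg21 (0.123). Those nearest to Apoe belonged to Ldlrad4 (0.132), Sec1 (0.136) and Plekhd1 (0.137). With 4 arrays in 2 groups, such a distance reflects mainly the size of the group difference.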
